A study of Mus musculus with 22 samples.

Results

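The libraries described here are replicate 1 of the 4 h groups GFP, WT and S40A, set against replicate 2 of the same groups. They were chosen by their labels alone, are paired by virus into 3 pairs, and make up 6 of the 22 libraries of the series. All came from cortical neurons of C57BL/6 mouse embryos at E16.5 with the genotype Creb1-/-, kept to DIV7 (7 days in vitro). Every culture was silenced for 12 to 16 hours with 1 µM tetrodotoxin, which blocks sodium channels, and 100 µM D-AP5, which blocks NMDA receptors. It then received a herpes simplex virus (HSV) for 4 h and was depolarized with 55 mM KCl for 2 h. The S40A group received HSV with CREB lacking its glycosylation site, the WT group HSV with wild-type CREB, and the GFP group HSV with GFP. All 6 libraries, GFP included, therefore share the loss of Creb1, the silencing, the virus and the depolarization. The promoter in the vector, the deleted part of Creb1 and the number of embryos behind each library are not given in the sources used here. No label calls replicates 1 and 2 separate cultures, and the scatter behind each p-value may therefore be technical. The deposited files of replicate 1 at 4 h carry consecutive numbers, as do those of replicate 2 in a later block. What these numbers count is not given, and any step shared within such a block cannot be told apart from the replicate.

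Depolarization opens voltage-gated calcium channels, and the calcium that enters switches on immediate early genes within minutes. Many of these encode transcription factors such as Fos and Npas4, which then switch on effector genes that act at synapses, and others encode phosphatases that end the signal. CREB binds a palindromic DNA element and a shorter core of it, and is a classical regulator of this response. Processed pseudogenes are copies of spliced messenger RNAs in the genome, and those of ribosomal and other housekeeping genes can be so similar that a short read matches gene and copy equally well.

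The authors deposited FPKM values (fragments per kilobase of transcript, relative to the mapped fragments of the library) for 24490 entries per library. The sums of these values were 422524, 444454 and 423205 FPKM in replicate 1 of GFP, WT and S40A, against 314062, 319567 and 322006 FPKM in replicate 2. All levels below are scaled FPKM (divided by a factor per library, from the median ratio over genes), and all differences are replicate 1 minus replicate 2 on the log2(scaled FPKM + 1) scale, where changes of low genes appear smaller than they are. Calls were made in limma with a term for the virus, where the p after Benjamini-Hochberg adjustment over 12097 genes was below 0.05. Creb1, the gene the virus supplied, stood at 246 scaled FPKM in WT, 234 in S40A and 11.8 in GFP of replicate 1, against 251, 268 and 15.7 in WT, S40A and GFP of replicate 2. Both WT and both S40A libraries lay above both GFP libraries, and the replicates did not differ by the call rule (log2 difference -0.20, SE 0.09, adjusted p = 0.148 by limma).

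Between the replicates, 2532 genes (20.9% of those tested) were higher and 2407 (19.9%) were lower in replicate 1, and the 4939 calls together were 40.8%. Without scaling the split was 4909 higher and 1145 lower, and the median difference of all genes was 0.246 in place of 0.006. Without the WT pair the counts were 490 and 239, and without the S40A pair 413 and 137. The 3 values of replicate 1 lay entirely above those of replicate 2 for 3969 genes (32.8%) and entirely below for 3756 (31%). Between GFP, WT and S40A at 4 h, limma's F test called 17 genes (0.141%), or 13 (0.107%) with the replicate number as a block, and Creb1 was the only one of either set that is not a microRNA or small nucleolar RNA entry. The replicate held 54.1% of the sum of squares over all genes at 4 h, the virus 23.1% and the remainder 22.8%. To keep genes with look-alikes apart, the percent of each gene's 31-base words that also occur in a transcript of another GENCODE M21 gene was counted, which 90.6% of the tested genes allowed. Over the genes with under 5% of such shared words the replicate held 79.7%, the virus 8.62% and the remainder 11.7%. Correlations of log2 values ran from 0.9018 to 0.9167 among the replicate 1 libraries, from 0.9129 to 0.925 among the replicate 2 libraries, and from 0.8008 to 0.8212 between libraries of the same virus in different replicates.

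The same paired fit was run on 2 sets of 6 libraries at 8 h that carry the same viruses. Replicates 1 and 2 at 8 h gave 3 genes higher (0.0248%) and 1 lower (0.00827%) in replicate 1, with 461 genes at an unadjusted p under 0.05. GFP replicate 2 at 8 h belongs to this set. Its summed deposited FPKM of genes with pseudogene copies was 54343, against 22319 to 25286 in the rest of its group. Ppia, such a gene, had a log2 difference of -2.96 in this set without a call (adjusted p = 0.770 by limma). The low number of calls thus does not show that these replicates were alike. Replicates 3 and 4 at 8 h gave 4 genes higher (0.0331%) and 9 lower (0.0744%) in replicate 3, with 3922 genes at an unadjusted p under 0.05. Of those 9 genes, 7 (77.8%) were also lower in replicate 1 at 4 h. They were 0.291% of the genes called lower at 4 h. Without the WT pair, 0 genes were called in replicates 3 and 4 at 8 h, and without any 1 pair 0 in replicates 1 and 2. Without the GFP pair replicates 3 and 4 gave 7 higher and 2 lower, and without the S40A pair 7 and 5.

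**Figure D1:**
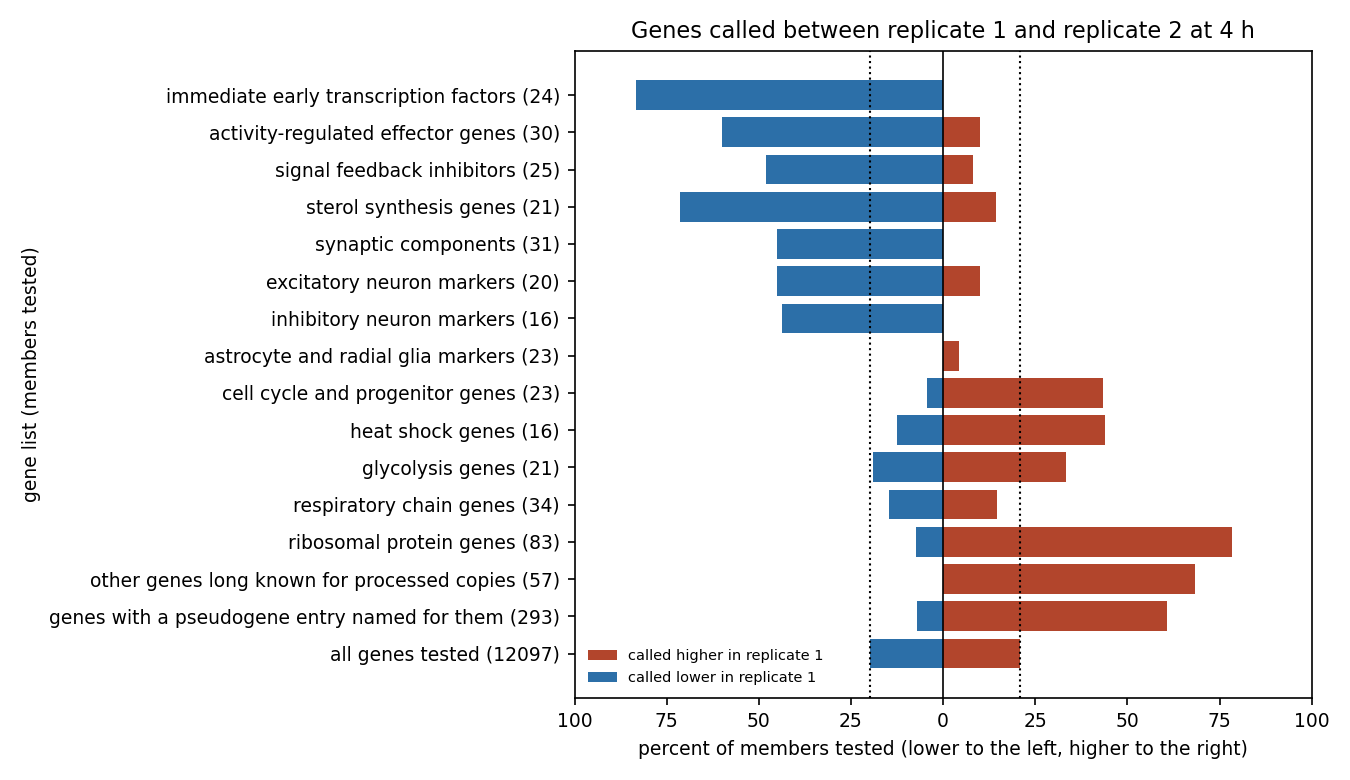
Percent of the members of each gene list called higher (right, red) and lower (left, blue) in replicate 1 against replicate 2 at 4 h, with the number of members tested in brackets. Dotted lines mark the shares over all genes, 20.9% higher and 19.9% lower. Immediate early transcription factors reached 83.3% lower and ribosomal protein genes 78.3% higher.

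The activity-regulated genes were lower in replicate 1. Of 24 immediate early transcription factors tested, 20 fell (83.3%, against 19.9% of all genes) and 0 rose, with a median log2 difference of -1.82 against 0.01 over all genes. Without the S40A pair 9 of them were called lower. The list's median stayed below 0 without scaling, at -1.54. Of the 21 members that share under 5% of their words with other genes, 18 fell, with a median of -1.86. The members not called were Jund, Klf10, Ier5 and Klf6, with log2 differences of -0.40, -0.27, -0.03 and -0.02.

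Fos, the AP-1 subunit used most often as a marker of active neurons, stood at 261, 338 and 181 scaled FPKM in replicate 1 of GFP, WT and S40A, against 817, 915 and 813 in replicate 2. Its log2 difference was -1.75 (SE 0.19, adjusted p = 0.0119 by limma), and the highest replicate 1 library was below the lowest of replicate 2. Npas4, a neuronal factor induced selectively by calcium entry, stood at 97.6, 136 and 63.3 in replicate 1, against 308, 365 and 308 in replicate 2 (log2 difference -1.78, SE 0.20, adjusted p = 0.0123 by limma). Both genes were highest in WT and lowest in S40A within replicate 1. Fosb, a relative of Fos and also an AP-1 subunit, stood at 58.3, 93.4 and 37.4 in replicate 1 and at 397, 472 and 442 in replicate 2. Its log2 difference was -2.87 (SE 0.27, adjusted p = 0.00991 by limma), and the replicates did not overlap for any of these 3 genes.

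Egr4, a zinc finger factor of the early growth response family, had the largest difference of the list. It stood at 6.02, 5.81 and 3.99 scaled FPKM in replicate 1 of GFP, WT and S40A, against 53.8, 102 and 91.1 in replicate 2 (log2 difference -3.70, SE 0.28, adjusted p = 0.00708 by limma). Its relatives also fell, Egr3 by 3.02, Egr2 by 2.88 and Egr1 by 1.50 on the log2 scale. Egr1 stood at 137, 179 and 88.8 in replicate 1 and at 388, 383 and 337 in replicate 2. Fosl2, another AP-1 subunit, fell by 2.57. The orphan nuclear receptors of the Nr4a family also fell together, Nr4a2 by 2.47, Nr4a1 by 2.16 and Nr4a3 by 1.87 on the log2 scale. Nr4a1 stood at 133.3, 201 and 88.8 in replicate 1 and at 617, 640 and 551 in replicate 2. Srf, the serum response factor that acts upstream of many of these genes, had a difference of -0.64 (SE 0.09, adjusted p = 0.0174 by limma).

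The viruses were ranked within each replicate over these 20 called genes. WT was the highest of the 3 libraries for 18 of them in replicate 1 and S40A the lowest for 17. In replicate 2, WT was again the highest for 18, while GFP was the lowest for 12. Each rank rests on 1 library per virus and replicate, and the virus order was not tested over this list. The F test among the viruses called none of these genes. The summed levels of the list were 1290, 1770 and 971 scaled FPKM in replicate 1 of GFP, WT and S40A, against 4500, 5070 and 4540 in replicate 2 and 1150 to 4010 in the 16 libraries at 8 h. All 3 sums of replicate 2 were thus above the 8 h range, and the S40A sum of replicate 1 was below it. For 4 of the 20 genes all 3 replicate 1 values were below all 16 libraries at 8 h, and for 7 genes all 3 replicate 2 values were above them. Among all 2407 genes called lower, replicate 1 lay below 15 of the 16 for 1005. Replicate 2 lay above those 15 for 695. GFP replicate 2 at 8 h was left out of the counts over all genes.

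**Figure D2:**
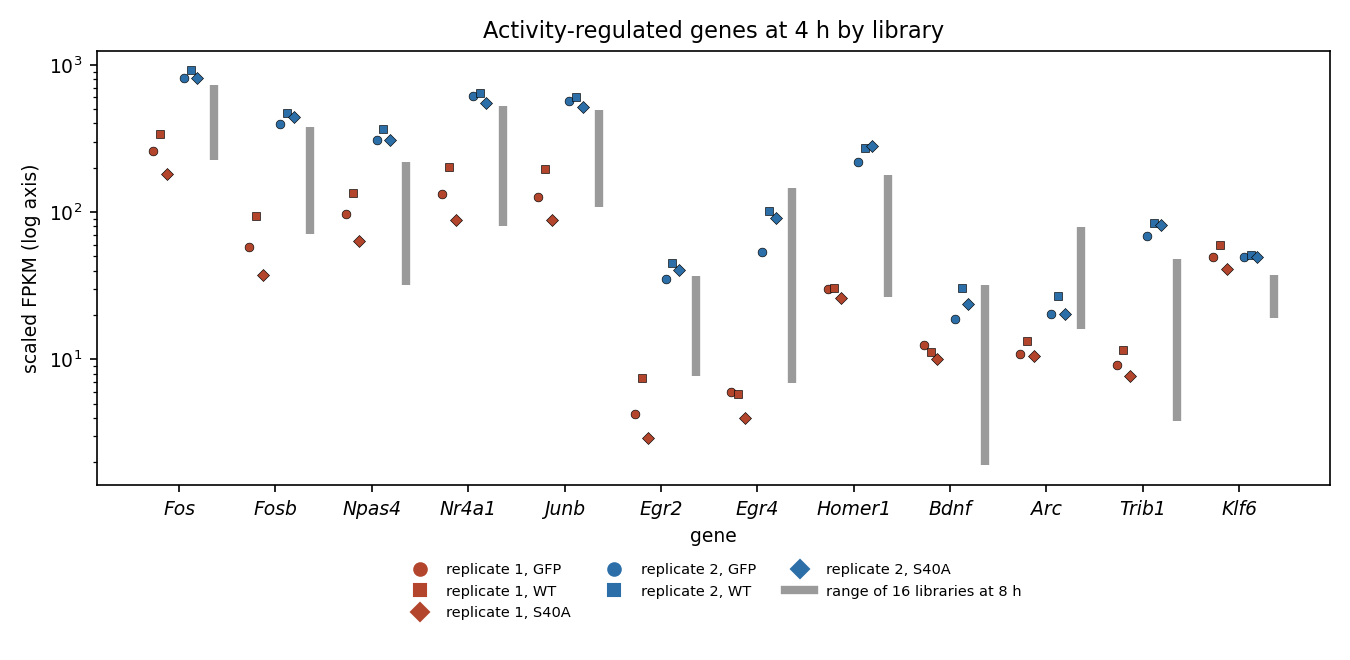
Scaled FPKM (log axis) of 12 activity-regulated genes in each 4 h library, replicate 1 in red left of replicate 2 in blue, with the virus by symbol and the range of the 16 libraries at 8 h as a grey bar. Every replicate 1 point lies below every replicate 2 point except for Klf6, whose log2 difference was -0.02.

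The promoters of 3 genes, each with cores of the CREB element, are shown because these genes carry the difference and CREB is the factor that the study varied. The sequences are the 150 bases before the annotated start, from the RefSeq table on GRCm38.p6, and capitals mark TGACG or its reverse complement CGTCA.
Fos (chr12:85473740-85473889, + strand): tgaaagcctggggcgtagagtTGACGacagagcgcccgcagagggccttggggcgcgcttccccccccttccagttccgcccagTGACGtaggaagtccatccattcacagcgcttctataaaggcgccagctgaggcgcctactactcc
Nr4a1 (chr15:101266696-101266845, + strand): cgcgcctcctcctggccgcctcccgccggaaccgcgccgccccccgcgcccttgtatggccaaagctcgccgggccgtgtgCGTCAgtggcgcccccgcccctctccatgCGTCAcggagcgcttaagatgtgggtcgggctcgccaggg
Homer1 (chr13:93303607-93303756, + strand): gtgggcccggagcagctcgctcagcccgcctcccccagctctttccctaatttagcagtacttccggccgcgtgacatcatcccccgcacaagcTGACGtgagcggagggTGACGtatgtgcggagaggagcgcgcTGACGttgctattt
Fos and Nr4a1 hold 2 cores each in these stretches and Homer1 holds 3. Of the 24 tested factors, 20 had a promoter in the table, and 13 of these (65%) held at least 1 core on either strand in the 250 bases before the start. Among all 27025 promoters of the table the share was 17.9%. The full palindrome TGACGTCA, which contains a core on each strand, was in 0 of the 20 and in 1.62% of all promoters. A promoter was found for 8822 of 12076 tested symbols, under 80%, so no share is compared over the tested genes. Among those 8822, the share with a core was 28.4%. It was 29.7% in the 1783 matched genes called lower and 28.7% in the 1887 called higher. Of the lists described below, 17 of 30 effectors, 19 of 25 feedback inhibitors and 14 of 21 sterol genes were matched, also under 80%. A core was in 64.7% of these effectors, 26.3% of these inhibitors and 42.9% of these sterol genes. The palindrome was in 4, 1 and 0 of them. A match is a string of letters and does not show binding.

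The effector genes, which carry the activity response to synapses and secreted signals, were lower in replicate 1 on balance. Of 30 tested, 18 fell (60%) and 3 rose (10%), with a median of -0.77 that stayed below 0 without scaling (-0.49). Without the S40A pair 4 were called lower and without the WT pair 6. Homer1, a postsynaptic scaffold gene with a short activity-induced form, had the largest difference. It stood at 29.9, 30.6 and 26.3 scaled FPKM in replicate 1 of GFP, WT and S40A, against 220, 274 and 279 in replicate 2 (log2 difference -3.11, SE 0.12, adjusted p = 0.00174 by limma). Bdnf, a secreted neurotrophin, stood at 12.5, 11.2 and 10.1 in replicate 1 and at 18.9, 30.4 and 23.8 in replicate 2 (log2 difference -1.03, SE 0.19, adjusted p = 0.0276 by limma). Arc, which drives the removal of AMPA receptors from synapses, stood at 10.8, 13.3 and 10.5 in replicate 1 and at 20.3, 26.9 and 20.3 in replicate 2. For these 3 genes the replicates did not overlap.

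Other effectors called lower included Btg2, an antiproliferative gene, at -2.19, Syt4, a synaptotagmin of dense core vesicles, at -1.95, Pcsk1, a protease that matures neuropeptides, at -1.80, Inhba, a subunit of activin, at -1.44, and the kinases Plk2 at -1.14 and Sik1 at -1.31. The other called effectors were higher. Rasgrp1, an activator of Ras, stood at 12.3, 10.8 and 9.57 in replicate 1 and at 1.78, 1.72 and 1.61 in replicate 2 (log2 difference 2.13, SE 0.09, adjusted p = 0.00197 by limma). The neuropeptide genes Crh and Penk rose by 1.11 and 1.03 on the log2 scale. Vgf, a secreted neuropeptide precursor, and Nptx2, a pentraxin that clusters AMPA receptors, were not called, at 0.09 and -0.32.

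Genes that shut the signal off were also lower on balance. Of 25 feedback inhibitors, 12 fell (48%) and 2 rose (8%), with a median of -0.35. Without the S40A pair 3 were called lower and without the WT pair 5. Trib1, a pseudokinase that targets transcription factors for degradation, stood at 9.23, 11.6 and 7.7 scaled FPKM in replicate 1 of GFP, WT and S40A, against 68.5, 84 and 81.9 in replicate 2 (log2 difference -2.92, SE 0.13, adjusted p = 0.00237 by limma). Of the MAP kinase phosphatases, Dusp14 fell by 2.42, Dusp1 by 1.48, Dusp6 by 1.46 and Dusp4 by 0.67, while Dusp2 and Dusp5 were not called. Crem, a relative of CREB that also gives rise to an inducible repressor, fell by 1.34. The members that rose were Pde4b, a phosphodiesterase that breaks down cAMP, at 0.35, and Nfkbia, the inhibitor of NF-kappa-B, at 0.74.

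The same 3 lists were set beside replicates 3 and 4 at 8 h, libraries that took no part in the 4 h fit. There the log2 difference of replicate 3 minus replicate 4 was below 0 for 24 of 24 immediate early factors, 29 of 30 effectors and 23 of 25 feedback inhibitors, with medians of -1.21, -0.96 and -0.67. Over all genes 5578 of 12097 (46.1%) were below 0, with a median of 0.02. Other lists were also mostly below 0, among them 21 of 23 cell cycle genes and 71 of 83 ribosomal protein genes, which were higher in replicate 1 at 4 h, with medians of -0.35 and -0.18. The factors ran from -2.76 for Egr4 to -0.10. The call rule was met there by 0 of the factors, 1 of the effectors and 0 of the inhibitors. In replicates 1 and 2 at 8 h, 3 of 24 factors were below 0 and the median was 0.20. Most members of the activity lists thus lay on the same side of 0 in replicates 3 and 4 at 8 h, with 1 call.

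Genes of cholesterol synthesis were also lower in replicate 1. Of 21 tested, 15 fell (71.4%) and 3 rose (14.3%), with a median of -0.68 that stayed below 0 without scaling (-0.41). Without the S40A pair 1 was called lower and without the WT pair 2. Srebf2, the transcription factor that drives these genes, stood at 67, 70.2 and 63.9 scaled FPKM in replicate 1 of GFP, WT and S40A and at 92.8, 98.9 and 98.6 in replicate 2 (log2 difference -0.52, SE 0.06, adjusted p = 0.0115 by limma). The replicates did not overlap. Stard4, which carries sterols between membranes, fell by 1.72, and the enzymes Sc5d and Msmo1 fell by 1.57 and 1.08. For 13 of the 15 genes all 3 replicate 2 values were above all 16 libraries at 8 h. Among all 2407 genes called lower, replicate 2 lay above the 8 h libraries other than GFP replicate 2 for 695. Of the 3 that rose, Idi1 (log2 difference 3.78) and Fdps (0.74) share 32.2% and 89.7% of their words with other genes, and Pmvk (0.70) shares 0%. Insig1, which holds back the pathway, was not called, at -0.08.

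Synaptic genes were lower on balance. Of 31 synaptic entries, 14 fell (45.2%) and 0 rose, with a median of -0.40. The median was -0.16 without scaling, where 8 were called lower. Without the GFP pair 25 were called lower, and without the WT pair or the S40A pair 1. Grin2b, an NMDA receptor subunit typical of young neurons, stood at 4.16, 3.43 and 3.08 scaled FPKM in replicate 1 of GFP, WT and S40A, against 9.84, 10.9 and 11 in replicate 2 (log2 difference -1.35, SE 0.13, adjusted p = 0.0101 by limma). Syn2, a synaptic vesicle protein, fell by 1.06 and Bsn, a scaffold of the active zone, by 0.99. Cplx1, a regulator of vesicle fusion, fell by 0.74. Dlg4, the postsynaptic scaffold PSD-95, and Syp, a vesicle membrane protein, were not called, at -0.14 and 0.04.

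Call shares also differed between transcript lengths, among genes with under 5% shared words. Of 1354 such genes with a reference transcript over 6 kb, 472 (34.9%) were lower and 139 (10.3%) higher in replicate 1, with a median of -0.16. Of 1287 such genes with 1 to 2 kb, 223 (17.3%) were lower and 250 (19.4%) higher, with a median of 0.02. The 220 such genes under 1 kb did not extend a trend with length: 45 (20.5%) were lower and 20 (9.09%) higher, with a median of -0.14. The part of length in the synaptic difference was not tested.

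In whole cultures, fewer cells of a type and less RNA per cell cannot be told apart. The 9 excitatory markers called lower, of 20 tested (45%), included Bhlhe22, a transcription factor of cortical projection neurons, at -1.41, Sla, an adaptor protein, at -1.26, Cux2, an upper layer factor, at -0.85, and Neurod6 and Neurod2, differentiation factors, at -0.63 and -0.52. Fezf2, a factor of deep layer neurons, and Slc17a7, the vesicular glutamate transporter, rose by 0.87 and 0.35. The list's median was -0.23, but 0.02 without scaling. The summed level was 529, 465 and 482 scaled FPKM in replicate 1 of GFP, WT and S40A, against 546, 615 and 590 in replicate 2. The replicate 1 sums were all lower (exact permutation p = 0.1, two-sided, the smallest that 3 against 3 allows), but the log2 ratio of the means was -0.25 with scaling and 0.04 without.

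Of 16 inhibitory neuron markers tested, 7 fell (43.8%) and 0 rose, with a median of -0.38 and of -0.10 without scaling. Without the S40A pair 0 were called lower, without the WT pair 1, and without the GFP pair 11. Maf, a factor of cortical interneurons, fell by 1.54, Erbb4, the neuregulin receptor, by 1.36, and Calb2, the calcium buffer calretinin, by 1.30. The interneuron factors Sp8 and Dlx1 fell by 0.96 and 0.71. Gad1, which makes GABA, stood at 127, 94.4 and 94.1 scaled FPKM in replicate 1 of GFP, WT and S40A, against 96.6, 122 and 130 in replicate 2, with overlapping groups (log2 difference -0.15, adjusted p = 0.601 by limma). Sst, the neuropeptide somatostatin, stood at 380, 287 and 239 in replicate 1 and at 187, 210 and 192 in replicate 2 (log2 difference 0.60, adjusted p = 0.0674 by limma). The summed level was 918, 778 and 693 in replicate 1, against 773, 895 and 905 in replicate 2, and the groups overlapped (exact permutation p = 0.7, two-sided). The log2 ratio of the means was -0.11 with scaling and 0.17 without.

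Of 16 genes of immature neurons and axon growth, 3 fell and 3 rose (18.8% each, near the 19.9% and 20.9% of all genes). Dcx, a microtubule protein of migrating neurons, fell by 0.96, Sox11, a factor of young neurons, by 0.68, and Cd24a, a surface protein, by 0.73. Stmn1, a tubulin-binding protein of which 42.6% of the words occur in other genes, stood at 1090, 949 and 965 scaled FPKM in replicate 1 of GFP, WT and S40A, against 82.2, 90.7 and 89.7 in replicate 2 (log2 difference 3.50, SE 0.11, adjusted p = 0.00108 by limma). Eomes, a factor of intermediate progenitors, rose by 1.03. The sum over all 16 members was 8260, 7340 and 7250 in replicate 1 and 6080, 6590 and 6490 in replicate 2. Over the 8 members with under 5% shared words it was 3410, 2950 and 2870 in replicate 1 and 3590, 3800 and 3620 in replicate 2. The replicate with the higher sum thus differed between these sets of members.

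Within replicate 1 the glial markers stood higher in WT and S40A than in GFP, a difference that was not tested. Summed over the 24 astrocyte and radial glia markers, the level in replicate 1 was 1010 in WT, 1170 in S40A and 497 in GFP, against 459 in WT, 531 in S40A and 596 in GFP in replicate 2 (exact permutation p = 0.3, two-sided). The groups overlapped, since GFP of replicate 1 lay among the replicate 2 libraries, and the other replicate 1 libraries were above the 8 h range of 220 to 613. Of 23 members tested, 1 was called higher (4.35%) and 0 lower. GFP was the lowest replicate 1 library for 21 of the 23. Fabp7, a fatty acid binding protein of radial glia, stood at 505 in WT, 636 in S40A and 196 in GFP of replicate 1, against 133.04, 187 and 221 in replicate 2 (log2 difference 1.17, SE 0.51, adjusted p = 0.144 by limma). Aldoc, an aldolase of astrocytes, stood at 39.5, 56 and 12.3 in WT, S40A and GFP of replicate 1, against 6.13, 10 and 14.2 in replicate 2. Hes1, Fgfr3 and Nes, genes of neural progenitors and glia, were not called at 1.23, 1.12 and 1.07. The called member was Slc1a2, the main glutamate transporter of astrocytes, at 0.40 (SE 0.09, adjusted p = 0.037 by limma).

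Cell cycle genes were higher in replicate 1. Of 23 tested, 10 rose (43.5%, against 20.9% of all genes) and 1 fell (4.35%), with a median of 0.84. The call count depended on the libraries: without the GFP pair 20 rose, without the WT pair 2 and without the S40A pair 1. It was 4 both without a filter on low values and with a minimum of 5 FPKM, 18 without scaling and 19 in a joint fit of the 22 libraries. The summed level was 388 in WT, 369 in S40A and 215 in GFP of replicate 1, against 131, 127 and 126 in replicate 2 (exact permutation p = 0.1, two-sided, the smallest that 3 against 3 allows). All 6 sums were above the 8 h range of 50.1 to 95.4, and GFP was the lowest replicate 1 library for 23 of 23 members.

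Top2a, the topoisomerase of dividing cells, stood at 38.6 in WT, 39.7 in S40A and 18.3 scaled FPKM in GFP of replicate 1, against 11.5, 10.7 and 11.5 in replicate 2 (log2 difference 1.36, SE 0.28, adjusted p = 0.034 by limma). Mki67, the proliferation antigen Ki-67, stood at 20.8, 16.4 and 8.8 in WT, S40A and GFP of replicate 1, against 5.79, 5.57 and 6.51 in replicate 2 (log2 difference 1.16, adjusted p = 0.0536 by limma). Neither gene overlapped between the replicates. Rrm2, a ribonucleotide reductase subunit, rose by 1.37. Pcna, the replication clamp, and Ube2c, a mitotic ubiquitin enzyme, rose by 1.41 and 1.47, but share 38% and 25.1% of their words, and Pcna is a gene with copies. The largest differences were those of Hmgb2, a chromatin protein (3.35), and Ccnb1, cyclin B1 (2.51), which share 24.9% and 46.9% of their words with other genes. Of the 13 members with under 5% shared words, 5 rose and 0 fell. For all 10 called genes the 3 replicate 1 values were above all 16 libraries at 8 h. Among all 2532 genes called higher, replicate 1 lay above the 8 h libraries other than GFP replicate 2 for 1437. Ccnd1, cyclin D1, was the member that fell (-0.42).

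Markers of other cell types were summed in the same way. Oligodendrocyte lineage markers summed to 78.3, 84.2 and 106 scaled FPKM in replicate 1 of GFP, WT and S40A, against 83.9, 102 and 143 in replicate 2 (exact permutation p = 0.5), and Olig2, a lineage factor, fell by 0.61 while Mog, a myelin protein, rose by 0.34. Microglia markers summed to 22.4, 22.3 and 26.3 in replicate 1, against 21.4, 18.2 and 27 in replicate 2 (exact permutation p = 0.6), with 3 of 12 above the filter and 0 called. Vascular and fibroblast markers summed to 20, 24.6 and 29.4 in replicate 1, against 32.9, 26.6 and 31.4 in replicate 2 (exact permutation p = 0.2), and Acta2, smooth muscle actin, rose by 1.17. Blood markers summed to 9.19, 22.9 and 9.48 in replicate 1, against 0.0709, 0.41 and 0.38 in replicate 2 (exact permutation p = 0.1, the smallest possible). Only 1 of 8 was above the filter, Hbb-y, an embryonic globin, which was listed at 0 in all 3 replicate 2 libraries. The blood entries with under 5% shared words summed to 1.54, 9.38 and 2.21 in replicate 1, against 0, 0.0898 and 0 in replicate 2. The part of these cell types in the activity and sterol differences was not tested.

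The levels of sex-linked genes were examined because the sex of the embryos is not in the labels. Xist, the RNA of the silenced X chromosome, was at most 0.151 scaled FPKM in all 6 libraries. Ddx3y, a Y-linked RNA helicase, stood at 19.3, 20.8 and 15.2 in replicate 1 of GFP, WT and S40A, against 71.3, 66.7 and 61.5 in replicate 2 (log2 difference -1.80, SE 0.08, adjusted p = 0.00236 by limma). Eif2s3y, a Y-linked translation factor, stood at 32.1, 33.7 and 32.9 in replicate 1 and at 32, 32.7 and 36.4 in replicate 2 (log2 difference -0.03), though without scaling it was called higher at 0.24. Kdm5d, a Y-linked demethylase, rose by 0.50 and Uty, another Y-linked gene, was not called (-0.20). The Y-linked genes therefore did not move together.

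**Figure D3:**
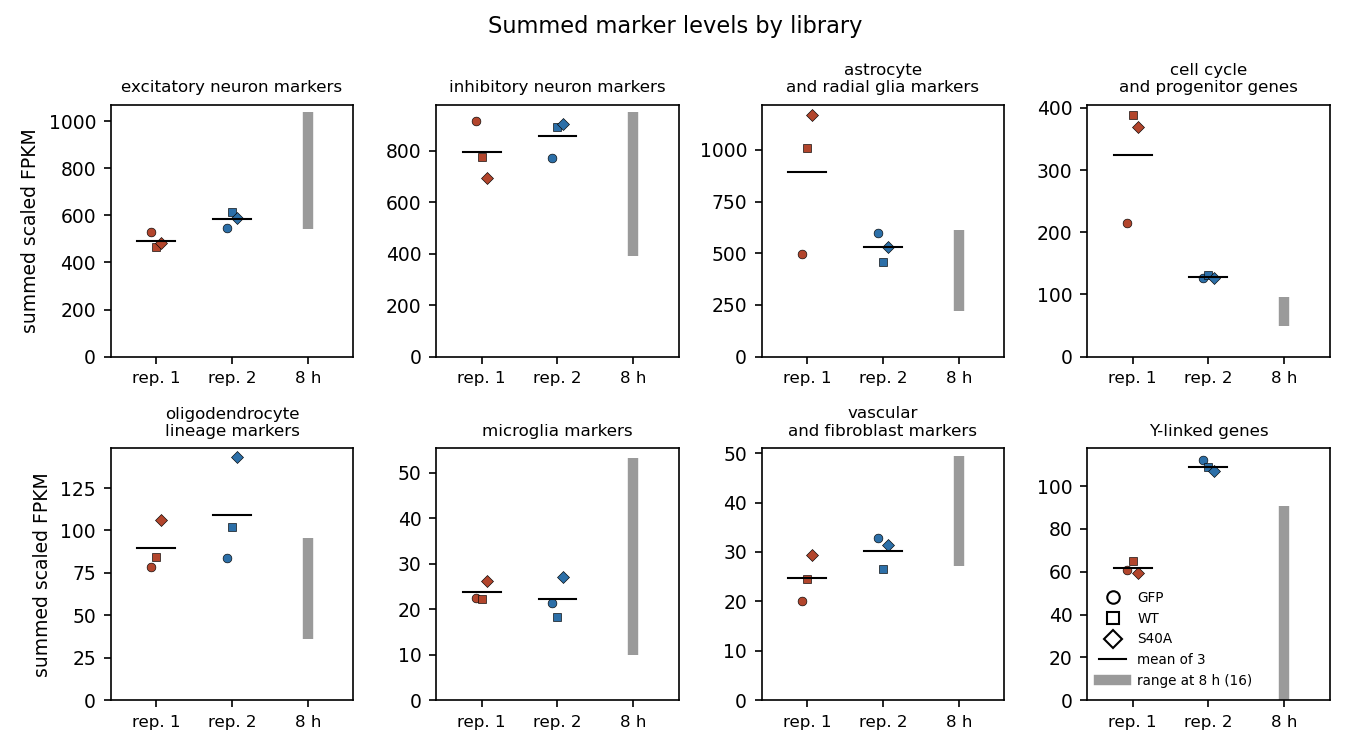
Summed scaled FPKM of 7 marker lists and of the Y-linked genes in each 4 h library, replicate 1 in red left of replicate 2 in blue, with the virus by symbol, the mean as a line and the range at 8 h in grey. Astrocyte and cell cycle sums were highest in WT and S40A of replicate 1, and the Y-linked sums of 60.6, 64.8 and 59.2 in replicate 1 lay below those of 112, 109 and 107 in replicate 2.

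Genes with near-identical copies were described apart from these groups. Genes with pseudogene copies are the ribosomal protein genes, other genes long known for processed copies, and genes with a pseudogene entry named for them. Of 345 such genes tested, 211 rose (61.2%) and 23 fell (6.67%), and 95 had a log2 difference above 2. For all 95 the replicate 1 values were above 15 of the 16 libraries at 8 h, and GFP replicate 2 at 8 h, the remaining library, was above those 15 as well. The 254 genes called higher with a difference above 2 include these 95. Replicate 1 was above those 15 libraries for 243 of the 254, and GFP replicate 2 at 8 h for 238. Both counts were 75 of 77 for other genes with 20% or more shared words. They were 7 and 5 of 10 for other genes with under 5% shared words. Over all genes tested, GFP replicate 2 at 8 h was above those 15 for 14.1%. This share was 63.2% for genes with copies and 9.53% for other genes with under 5% shared words. The summed deposited FPKM of genes with copies was 53970, 54407 and 55315 in replicate 1 of GFP, WT and S40A, against 21590, 23091 and 23012 in replicate 2.

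Ppia, cyclophilin A and a common reference gene in quantitative PCR, stood at 492, 455 and 456 scaled FPKM in replicate 1 of GFP, WT and S40A, against 0.165, 0.334 and 0.078 in replicate 2 (log2 difference 8.62, SE 0.09, adjusted p = 1.52e-04 by limma). Rpl9, a protein of the large ribosomal subunit, stood at 252.4, 255.6 and 255.0 in replicate 1 and at 0.697, 0.234 and 0.504 in replicate 2 (log2 difference 7.44, SE 0.11, adjusted p = 2.98e-04 by limma). GFP replicate 2 at 8 h held 522 for Ppia and 246 for Rpl9. No other 8 h library exceeded 0.347 for Ppia or 0.992 for Rpl9. Stretches of both coding sequences are shown beside the processed pseudogene that shares most words with them, because they show how alike gene and copy are. They were read from GENCODE M21 on GRCm38, run 5′ to 3′ along the gene, and capitals mark a position that differs between gene and copy.
Ppia (chr11:6419113-6419202, + strand): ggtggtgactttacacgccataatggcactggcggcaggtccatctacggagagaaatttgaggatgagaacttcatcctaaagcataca
Gm10123 (chr9:96895847-96895936, + strand): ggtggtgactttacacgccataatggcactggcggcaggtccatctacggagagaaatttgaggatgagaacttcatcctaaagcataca
Rpl9 (chr5:65390389-65390478, - strand): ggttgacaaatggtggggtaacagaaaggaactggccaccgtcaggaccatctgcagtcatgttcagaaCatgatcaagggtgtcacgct
Rpl9-ps4 (chr13:72455084-72455173, - strand): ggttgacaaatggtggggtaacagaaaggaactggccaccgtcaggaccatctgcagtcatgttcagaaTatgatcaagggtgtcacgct
Over the 490 aligned bases, Ppia and Gm10123 were identical at 490, and over 576 bases Rpl9 and its copy at 575 (99.8%). Over all chromosomes, a 31-base word of the Ppia coding sequence was found in 49 processed pseudogenes and one of Rpl9 in 30.

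Of 83 ribosomal protein genes tested, 65 rose (78.3%) and 6 fell (7.23%), with a median of 2.46. Their sums were 15800, 17300 and 16800 scaled FPKM in replicate 1 of GFP, WT and S40A, against 5630, 6360 and 6000 in replicate 2. Rps28, a protein of the small subunit, rose by 7.82 and Rpl11, a protein of the large subunit, by 7.29. Rps3, a protein of the small subunit with 8.95% shared words, stood at 172, 190 and 175 in replicate 1 and at 236, 264 and 258 in replicate 2 (log2 difference -0.49, SE 0.06, adjusted p = 0.0155 by limma). Rpl8, a protein of the large subunit with 8.28% shared words, stood at 518, 548 and 519 in replicate 1 and at 516, 578 and 528 in replicate 2, with overlapping groups (log2 difference -0.03). Rpl22, with 9.85% shared words, fell by 0.52. The ribosomal genes thus did not move as 1 group. Others called lower were Rpl7a at -1.30, Rpl29 at -0.97 and Rpl21 at -0.78, with 87.1%, 49.1% and 27.4% shared words. Outside the ribosome, the genes with copies that fell most were Utp14b and Bambi at -0.97 each and Ccnd3 at -0.95.

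Genes long known for processed copies outside the ribosome were also higher. Of 57 tested, 39 rose (68.4%) and 0 fell, with a median of 1.36. The alpha tubulin genes Tuba1c and Tuba1b rose by 8.47 and 5.14, Actg1, a cytoplasmic actin, by 5.92, and Sumo2, a protein modifier, by 6.11. Actg1 stood at 1201, 1180 and 1114 scaled FPKM in replicate 1 of GFP, WT and S40A, against 17.8, 19 and 18 in replicate 2. Of 293 genes with a pseudogene entry named for them, 178 rose (60.8%) and 21 fell (7.17%). Without the WT pair 107 rose and without the S40A pair 111. Of the 25 pseudogene entries themselves, 22 rose (88%) and 0 fell, with a median of 1.80. Gene and copy entries were thus higher in the same libraries.

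**Figure D4:**
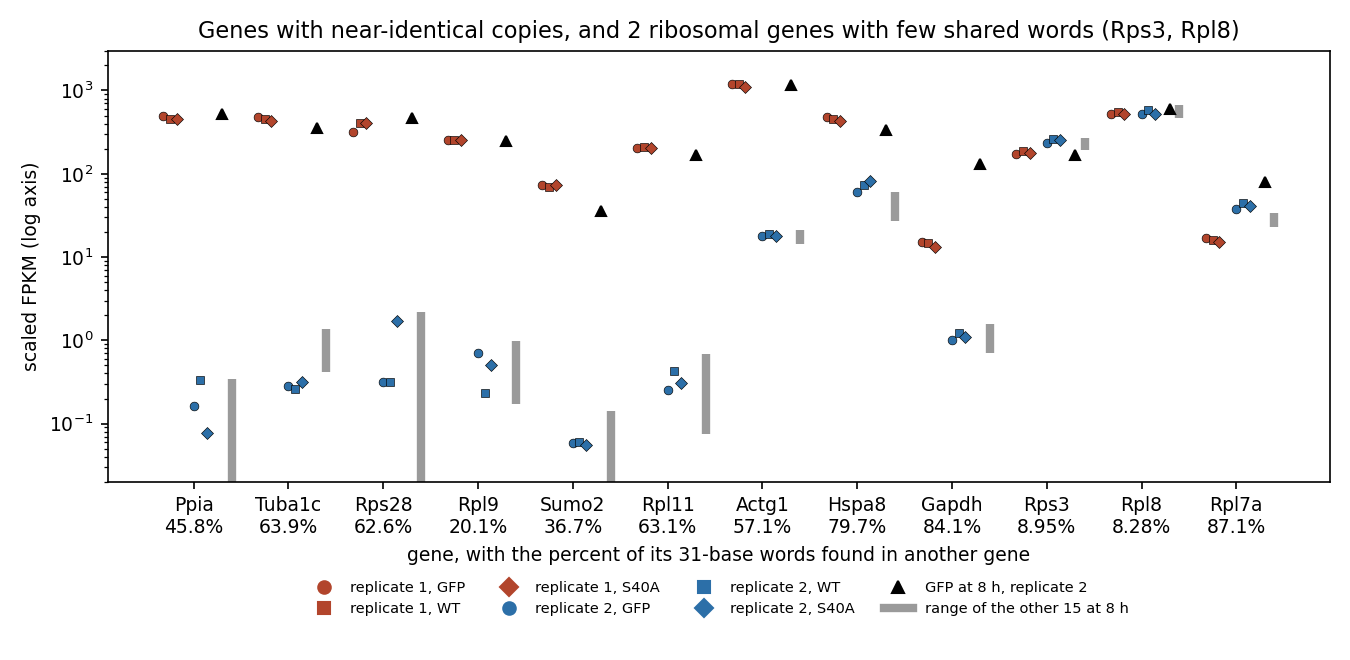
Scaled FPKM (log axis) of 12 genes in each 4 h library, replicate 1 in red left of replicate 2 in blue, with GFP replicate 2 at 8 h as a triangle and the range of the other 15 libraries at 8 h in grey, clipped at the axis foot where the lowest is 0. For Ppia the 3 replicate 1 libraries and the triangle lie between 455 and 522, and every other library at or below 0.347. For Rps3 and Rpl8, with few shared words, the log2 differences were -0.49 and -0.03.

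Functional lists that hold such genes were counted with and without them. Over all genes tested 20.9% rose and 19.9% fell. Among those with under 5% shared words and outside the copy lists, 16.9% rose and 22.9% fell. Of 21 glycolysis genes, 7 rose and 4 fell, but of the 10 with under 5% shared words 0 rose and 3 fell. Gapdh, the glycolytic enzyme and reference gene, stood at 15.3, 14.6 and 13.3 scaled FPKM in replicate 1 of GFP, WT and S40A, against 1.01, 1.24 and 1.11 in replicate 2 (log2 difference 2.86, SE 0.09, adjusted p = 0.00121 by limma), and 84.1% of its words occur elsewhere. The enzymes Pgam1, Pgk1 and Eno1 rose by 4.34, 3.71 and 2.76. Slc16a1, a lactate transporter with 0% shared words, fell by 1.71. Of 16 heat shock genes, 7 rose and 2 fell, and of the 7 with under 5% shared words 1 rose and 2 fell. Hspa8, the constitutive Hsc70 chaperone with 79.7% shared words, stood at 487, 452 and 434 in replicate 1 and at 60.8, 74.1 and 82.8 in replicate 2. The chaperones Hspa1a and Hsp90aa1, with 70.1% and 62.9% shared words, rose by 2.46 and 1.74. Of 34 respiratory chain genes, 5 rose and 5 fell, and of the 20 with under 5% shared words 0 rose and 4 fell. The member with the largest difference was Cycs, cytochrome c, at 3.11, a gene with copies. The list's median was -0.18, but 0.09 without scaling.

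The difference was also set beside shared words over all genes, as a description without a test. The median log2 difference was -0.01 for 4014 genes with 0% shared words, 0.22 for 807 genes with over 20 to 40%, 0.61 for 179 genes with over 60 to 80% and 0.46 for 159 genes with over 80%. Of those 159 genes, 54.7% were called higher and 11.3% lower. Of the 7722 genes with under 5% shared words and outside the copy lists, 1305 rose (16.9%) and 1768 fell (22.9%). No source used here says where the authors placed reads with more than 1 match, so values of genes with copies are uncertain.

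**Figure D5:**
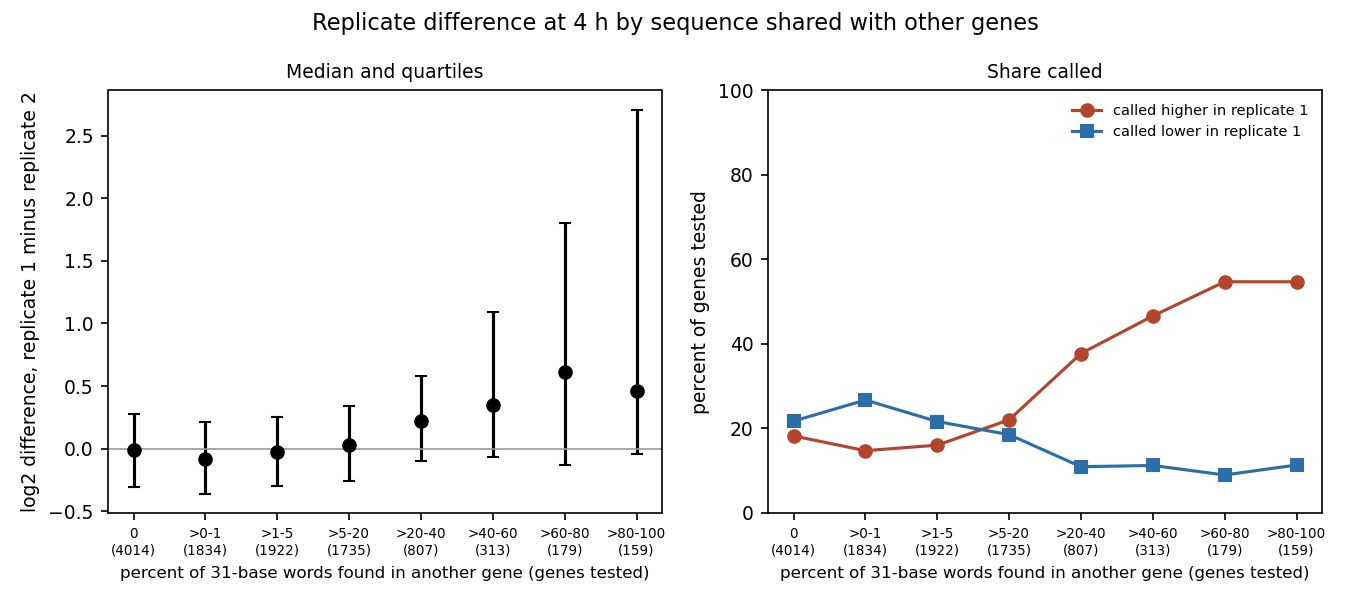
Left, median log2 difference of replicate 1 minus replicate 2 at 4 h (points) with quartiles (bars) for genes grouped by the percent of their 31-base words found in another gene. Right, percent of those genes called higher (red) and lower (blue) in replicate 1. The share called higher was 18.2% at 0% shared words and 54.7% above 80%.

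Some large differences concerned genes outside the activity and copy lists with under 5% shared words, a cut-off that does not exclude copies. Ube2s, an enzyme that extends ubiquitin chains in mitosis, shares 0% of its words and stood at 72.1, 87 and 78.2 scaled FPKM in replicate 1 of GFP, WT and S40A, against 4.93, 5.27 and 5.01 in replicate 2 (log2 difference 3.72, SE 0.06, adjusted p = 3.19e-04 by limma). Slc7a11, the cystine transporter of the antioxidant response, stood at 18.5, 16.6 and 17 in replicate 1 and at 0.667, 0.42 and 0.539 in replicate 2 (log2 difference 3.58). Both genes were also high in GFP replicate 2 at 8 h, at 64.6 and 12.2, as were many genes with copies. No other 8 h library exceeded 5.77 for Ube2s or 1.72 for Slc7a11. Lars2, a mitochondrial leucyl-tRNA synthetase, stood at 376, 605 and 421 in replicate 1 and at 97.2, 94.1 and 94.7 in replicate 2 (log2 difference 2.25), while GFP replicate 2 at 8 h held 55.8. Acta1, an actin of skeletal muscle, rose by 3.46 and stood at 28.2 in GFP replicate 2 at 8 h, against at most 5.72 in the other 8 h libraries. These genes were chosen after their values were seen.

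Of 254 genes with a log2 difference above 2, 10 shared under 5% of their words and were outside the copy lists. The same held for 25 of the 40 genes below -2 and for 7722 of all 12097 genes tested. Lsm7, a subunit of a ring that binds RNA with 23.4% shared words, rose by 4.63. The genes below -2 included Arl5b, a small GTPase of the Golgi, at 14.3, 17.9 and 13.5 in replicate 1 of GFP, WT and S40A, against 112, 137 and 134 in replicate 2 (log2 difference -2.99, SE 0.09, adjusted p = 0.00108 by limma). Klf9, a zinc finger factor, stood at 4.18, 5.78 and 3.94 in replicate 1 and at 27.9, 46.4 and 53.9 in replicate 2 (log2 difference -2.92). Fdx1l, Snapin, Tnfrsf12a and 1 of the entries of Eno1b were listed at 0 in all 3 replicate 1 libraries and above 5 scaled FPKM in all 3 of replicate 2. Another Eno1b entry, on chromosome 18, went the opposite way. It stood at 112, 100 and 107 in replicate 1 of GFP, WT and S40A, against 2.24, 2.54 and 2.68 in replicate 2. Eno1b shares 88.7% of its words with other genes. Among those with the largest positive differences, Atp5g2, Rps27rt, Erdr1, Dynlt1c, Srp54b, Npcd, Eif3j2, Acat3, Zbtb17 and Polr2c were listed at 0 in all 3 replicate 2 libraries. A value listed at 0 can be a failed estimate, so no fold is given for them.

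Genes of stress and cell death went in both directions, as did all genes tested, of which 20.9% rose and 19.9% fell. Of 17 apoptosis and p53 genes, 6 rose (35.3%) and 4 fell (23.5%). Hrk and Bcl2l11, which promote neuronal death, fell by 1.71 and 1.35, while Aen, a p53-induced nuclease, rose by 1.13. Of 25 unfolded protein and integrated stress genes, 9 rose (36%) and 6 fell (24%). Chac1, which degrades glutathione under stress, rose by 1.25, and Dnajb9, a chaperone of the endoplasmic reticulum, fell by 0.85. Phgdh, the first enzyme of serine synthesis, rose by 1.99, but it is a gene with copies and shares 74.1% of its words. Of 13 hypoxia genes, 4 rose and 2 fell, and of 6 interferon genes 1 rose, Stat2, at 0.62. Of 12 metallothionein and oxidative stress genes, 2 rose and 3 fell, with Txnip, an inhibitor of thioredoxin, at 1.88. Of 14 replication-dependent histone genes, 9 rose and 1 fell, but 1 of the 14 had under 5% shared words.

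Some abundant noncoding entries also separated the replicates. Of the others examined, the long noncoding RNA Meg3 (log2 difference -0.08) and the microRNA entry Mir6236 (0.62) were not called. Rn45s, the ribosomal RNA precursor, stood at 1450, 2320 and 1630 scaled FPKM in replicate 1 of GFP, WT and S40A, against 815, 854 and 800 in replicate 2 (log2 difference 1.10, adjusted p = 0.0428 by limma) and 129 to 257 at 8 h. Malat1, a nuclear long noncoding RNA, stood at 58.3, 63.6 and 48.6 in replicate 1 and at 144, 139 and 158 in replicate 2 (log2 difference -1.36, SE 0.13, adjusted p = 0.0102 by limma). The part of the ribosomal RNA level in the other differences was not tested.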

How the data were processed

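Per the labels' protocols, RNA was extracted with RNeasy Plus columns and messenger RNA libraries were made with an Illumina kit. The authors deposited FPKM values per gene with a confidence interval and a status for 22 libraries. The submitters' processing notes name CASAVA 1.7, Bowtie 0.12.2 and Cufflinks, and the builds mm8 and mm10, with no role for either. The handling of reads that match several places, the strand and the depth are not given in the sources used here. The deposited intervals of genes near 10 FPKM reached 6.9% to 7.6% to either side in the 4 h libraries, and no total of reads was used.

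FPKM values were divided by a median-of-ratios factor per library. In replicate 1 of GFP, WT and S40A at 4 h the factors were 1.07, 1.05 and 1.09, and in replicate 2 they were 0.9, 0.863 and 0.875. Entries that averaged at least 1 FPKM over the 22 libraries were kept, 21 with status FAIL were removed, and log2(scaled FPKM + 1) was fitted with limma 3.58.1 in R 4.3.3 with virus and replicate as terms and a mean-variance trend (residual degrees of freedom 2, prior 1.58). The block by virus follows the shared label. P-values were adjusted by Benjamini-Hochberg over 12097 entries. Summed levels were compared by an exact permutation test over the 6 libraries, two-sided. The fit was tested on simulated data. Tables were made with pandas 2.3.3 and numpy 2.4.6 under Python 3.11.15, and figures with matplotlib 3.10.9.

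The members and the gene lists were chosen with earlier results of these data known, and the measure of shared 31-base words was added after seeing the data. Gene positions in the files fall on mm10 (GRCm38), and 23353 symbols matched reference names. Names were drawn from the 12 called genes with the largest difference in each direction among named genes of at least 300 bases outside the copy lists, the 5 largest in each direction with copies, up to 5 per list by size, and Creb1. Some genes of this rule are not reported here. Entries listed at 0 are named without a fold. Other members named, chosen after their values were seen, stand for a role in their list. Alternatives were other pseudocounts, filters and scalings, no virus term, a joint fit of 22 libraries, no trend, robust moderation, subsets without copies, and each pair left out.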

Additional observations from a re-analysis of the deposited data

Results flagged for a closer look

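The summed deposited FPKM of genes with pseudogene copies was 54343 in GFP replicate 2 at 8 h, against 22319 to 25286 in the other 3 libraries of its group. Its gap to the nearest of them was 0.907 of the group's range, above Dixon's 95% critical value for 4 libraries. Of 18 groups tested for single libraries far from the rest, this 1 was found, and chance flags about 1 in 20 groups.

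The ratio of summed astrocyte and radial glia markers, replicate 1 over replicate 2, went in opposite directions by virus, at 1.14 on the log2 scale in WT, 1.14 in S40A and -0.26 in GFP. The ratio of summed inhibitory neuron markers did so the other way, at -0.2 in WT, -0.38 in S40A and 0.25 in GFP. Each value rests on 1 library per replicate, and the difference between viruses was not tested.

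The status column of the files marks 347 entries as LOWDATA in each of the 3 replicate 1 libraries at 4 h, the same entries in all 3, and 0 in the other 19 libraries. Of these entries 101 are small RNAs or span under 300 bases, and 223 were at 0 FPKM in all 6 libraries at 4 h.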

How the results depend on the processing

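Without scaling, 4909 genes were higher and 1145 lower in replicate 1 at 4 h, against 2532 and 2407 with it. Without each pair in turn the counts ran from 413 to 2684 higher and from 137 to 2654 lower. For replicates 3 and 4 at 8 h they ran from 0 to 7 higher and from 0 to 5 lower, and for replicates 1 and 2 at 8 h they were 0 in both directions. The virus contrast at 4 h gave 17 genes without and 13 with the replicate block. Without scaling the summed excitatory markers turned to 0.036 from -0.247 on the log2 scale, the inhibitory markers to 0.175 from -0.107, and Eif2s3y was called higher at 0.24 (adjusted p = 0.03 by limma). The microglia sum was 0.094, and from -0.031 to 0.259 with 1 library left out. Of the 157 entries of genes named in the text, 71 that were called were no longer called without the S40A pair, 55 without the WT pair and 6 without the GFP pair, with the same sign. The cause of these changes was not tested. The depth is unknown and the deposited intervals were not examined at low values, so no counting error was set beside these. Genes with copies have uncertain values.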
